A study of Mus musculus with 4 samples.

Results

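The regions described here are the distal intergenic Runx3 peaks of splenic CD4+ dendritic cells (DC): peaks whose centre lay more than 10 kb and at most 50 kb from the nearest transcription start site (TSS) of any annotated transcript and outside every gene body. They numbered 1940 of the 15121 peaks in the deposited list, or 12.8% of it. The rule used position alone, so score and sequence content were free to vary. Runx3 was immunoprecipitated with a polyclonal antibody made by the laboratory from CD11chi MHCII+ CD4+ conventional DC sorted from the spleens of C57BL/6 mice, with cells of about 15 mice per sample (the label of input 2 gives the strain as C57BL/7). There were 2 Runx3 immunoprecipitates and 2 input controls, and peaks were called once on the pooled samples, which left no value per replicate. All comparisons were therefore made among peaks, with 95% intervals that cover counting error only. Peaks are not replicates of a condition, and neighbouring peaks share their source.

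Runx3 belongs to the RUNX family of transcription factors, which bind DNA with the partner CBFβ through a conserved Runt domain and recognise the sequence TGTGGT. RUNX factors act in blood cells both as activators and as repressors, often at enhancers, which are regulatory elements that can lie far from the promoter they act on. CD4+ DC are the main CD11b+ conventional DC of the spleen. They depend on Notch2 signalling and on the factors Rbpj and Irf4, and present antigen to CD4+ T cells. No transcript or chromatin mark was measured in the ChIP-seq samples, so a peak marks bound DNA and neither its activity nor its target gene.

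Sequence of the strongest distal peaks is shown first, since TGTGGT is the hexamer in which the distal peaks differed most from nearby sequence. Each line gives the closest protein-coding gene by TSS, the position on mm9 and 200 bases around the peak centre, plus strand, with TGTGGT, its second form TGCGGT and their reverse complements in capitals. The 11 sequences are from the 12 highest-scoring peaks, without the one closest to Lipg, and 4 of them held no TGTGGT in this window, at Cdc42se2, Fgd2, Gm9796 and Pigt.
S100a11, chr3:93310029-93310228: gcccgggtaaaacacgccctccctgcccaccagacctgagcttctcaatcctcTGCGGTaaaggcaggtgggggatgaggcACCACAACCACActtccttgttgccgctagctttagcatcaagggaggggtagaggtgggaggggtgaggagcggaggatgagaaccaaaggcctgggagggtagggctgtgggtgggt
Rbm38, chr2:172887606-172887805: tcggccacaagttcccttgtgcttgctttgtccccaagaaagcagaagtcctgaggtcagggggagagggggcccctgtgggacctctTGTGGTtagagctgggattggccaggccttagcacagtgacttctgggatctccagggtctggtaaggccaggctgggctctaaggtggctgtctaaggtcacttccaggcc
Cdc42se2, chr11:54621379-54621578: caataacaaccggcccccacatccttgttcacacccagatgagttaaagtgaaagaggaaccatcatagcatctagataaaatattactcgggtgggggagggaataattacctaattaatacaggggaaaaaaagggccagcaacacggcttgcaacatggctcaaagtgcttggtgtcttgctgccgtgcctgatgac
1300014I06Rik, chr13:34783023-34783222: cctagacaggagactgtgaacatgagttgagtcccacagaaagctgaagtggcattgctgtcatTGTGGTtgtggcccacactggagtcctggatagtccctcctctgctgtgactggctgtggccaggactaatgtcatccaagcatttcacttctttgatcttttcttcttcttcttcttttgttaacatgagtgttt
Fgd2, chr17:29532441-29532640: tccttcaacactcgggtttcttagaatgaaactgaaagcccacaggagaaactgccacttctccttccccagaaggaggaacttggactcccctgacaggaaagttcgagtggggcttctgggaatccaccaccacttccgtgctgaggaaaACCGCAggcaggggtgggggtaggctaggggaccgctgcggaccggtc
Tm4sf5, chr11:70303382-70303581: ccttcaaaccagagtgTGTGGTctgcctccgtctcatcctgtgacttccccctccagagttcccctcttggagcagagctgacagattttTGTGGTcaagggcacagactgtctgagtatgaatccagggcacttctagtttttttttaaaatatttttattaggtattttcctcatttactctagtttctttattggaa
Slc35d3, chr10:19550921-19551120: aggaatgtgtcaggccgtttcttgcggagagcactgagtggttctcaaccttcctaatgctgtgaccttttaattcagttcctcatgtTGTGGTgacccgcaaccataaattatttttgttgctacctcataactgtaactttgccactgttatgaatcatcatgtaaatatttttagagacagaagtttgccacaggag
Gm9796, chr11:95549806-95550005: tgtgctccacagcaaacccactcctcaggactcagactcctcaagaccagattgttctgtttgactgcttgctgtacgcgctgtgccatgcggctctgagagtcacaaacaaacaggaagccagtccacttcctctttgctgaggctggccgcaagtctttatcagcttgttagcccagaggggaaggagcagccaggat
Pigt, chr2:164347397-164347596: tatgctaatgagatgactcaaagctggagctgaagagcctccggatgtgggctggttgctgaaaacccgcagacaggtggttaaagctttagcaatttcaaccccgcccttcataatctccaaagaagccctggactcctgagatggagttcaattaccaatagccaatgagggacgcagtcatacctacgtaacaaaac
Rnf19b, chr4:128710055-128710254: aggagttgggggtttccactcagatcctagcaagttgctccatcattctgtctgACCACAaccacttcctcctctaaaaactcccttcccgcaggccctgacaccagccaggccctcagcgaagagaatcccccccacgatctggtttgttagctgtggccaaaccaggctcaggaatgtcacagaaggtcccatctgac
Serpina12, chr12:105300170-105300369: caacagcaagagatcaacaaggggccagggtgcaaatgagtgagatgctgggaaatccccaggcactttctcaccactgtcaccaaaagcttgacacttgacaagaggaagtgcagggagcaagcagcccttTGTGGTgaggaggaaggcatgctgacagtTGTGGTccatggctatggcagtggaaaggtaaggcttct
In the S100a11 peak 2 adjacent copies of the hexamer ran into the ETS hexamer GGAAGT, all in reverse complement, and a copy of TGCGGT lay to their left. In the Rnf19b sequence a RUNX and an ETS hexamer also lay close together in reverse complement. The Tm4sf5 and Serpina12 windows each held 2 copies of TGTGGT and 1 of GGAAGT. The Fgd2 window held TGCGGT and GGAAGT, and its peak held 1 copy of TGTGGT 288.5 bp from the centre. The Cdc42se2 and Pigt windows held none of the 3 hexamers, and their copies of TGTGGT lay 119.5 and 160.5 bp or more from the centre. The Gm9796 peak held no TGTGGT over its whole width of 524 bp, although its score was 129.

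Scores of the distal peaks were close to those of the list as a whole. MACS2 gave each peak a score whose unit is not stated. A peak with a higher score is called stronger here, which ranks peaks within the list and does not measure binding strength. The median score of the distal peaks was 12.7, with quartiles of 7.53 and 24.2 and a range of 1.69 to 173, and the median over all peaks was 12.1. Widths ran from 253 to 1389 bp with a median of 403 bp. A score in the upper quartile of the whole list was reached by 527 distal peaks, or 27.2% (95% Wilson interval 25.2 to 29.2%), beside 25.4% of all peaks. The share exceeded that of intergenic peaks at 1 to 10 kb by 3.24 percentage points (Newcombe 95% interval 0.352 to 6.11). With the interval widened for the 9 comparisons made with the like classes, this difference ran from -0.855 to 7.29 and was no longer called. The shares in intergenic peaks beyond 50 kb (26.4%) and in intronic peaks beyond 10 kb (25.3%) differed from it by 0.795 points (-2.79 to 4.26) and 1.83 points (-0.820 to 4.49), and both intervals included 0.

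The strongest distal peak, at chr3:93309711-93310547, had a score of 173 and ranked 18 in the whole list. It lay 14281 bp upstream of the TSS of S100a11, a calcium-binding protein of the S100 family. The next, at chr18:75039511-75040113, scored 167 and was closest among protein-coding genes to Lipg, the endothelial lipase, at 81105 bp. A snoRNA annotated as SNORA22 lay closer, at 26276 bp. A peak with a score of 148 lay 39155 bp downstream of the TSS of Rbm38, an RNA-binding protein. The peak closest to Cdc42se2, a small effector of the GTPase Cdc42, scored 146, spanned 1241 bp and held 5 copies of TGTGGT. The peak next to Fgd2, an exchange factor for the same GTPase that is known from antigen-presenting cells, scored 139 and lay 19095 bp downstream of its TSS. Among the 12 highest scores, the lowest was 121, in the peak 17617 bp upstream of Serpina12. Of these 12 peaks 11 held TGTGGT, and at 6 of them the closest protein-coding gene carried a promoter peak, meaning a peak centre within 1 kb of one of its TSS. Over all distal peaks these shares were 65.5% and 38.1%. The 12 peaks spanned 524 to 1248 bp, beside the median of 403 bp, so they also offered more sequence. The 3 widest distal peaks spanned 1389 bp upstream of Gp49a, a receptor gene of the immunoglobulin superfamily, 1376 bp upstream of Btg2, an antiproliferative gene, and 1268 bp upstream of Ankdd1a. They scored 29.0, 82.2 and 25.8. Width rose with score, from a median of 300 bp in the 480 distal peaks with the lowest scores to 350.5, 423 and 547 bp in the next groups of like size.

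At the limits of the rule, the peak just outside 10 kb, at chr14:115453483-115453825, had a distance of 10005 bp and a score of 12.7, and the peak just inside that limit, which was left out, had 10000 bp and 11.7. At the upper limit the last peak kept had a distance of 49917 bp and a score of 13.4, and the closest one left out had 50073 bp and 14.2. Each of these 4 peaks held the hexamer.

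TGTGGT was found on either strand of 1270 distal peaks, or 65.5% (63.3 to 67.5%), beside 54% of all peaks. In windows of equal width 10 kb downstream that held neither a peak nor an unsequenced base, the share was 29.0% over the same 1901 peaks. Of the pairs that differed, the peak alone held the hexamer in 859 and the window alone in 166, so the peak held it in 83.8% of them (exact Clopper-Pearson interval 81.4 to 86.0%, against 50%). The reversed sequence TGGTGT, with the same base composition, was as frequent in the peaks (26.4%) as in the windows (26.9%), and the peak held it in 49.4% of the pairs that differed (45.7 to 53.1%). Median GC content was 47.5% in the peaks and 45.1% in the windows.

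**Figure D1:**
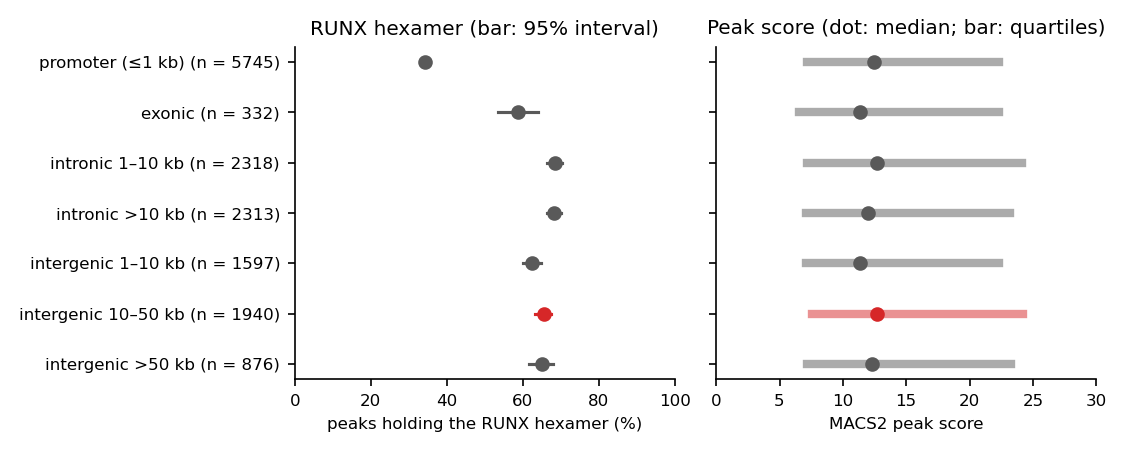
Share of peaks holding the RUNX hexamer (left, percent, with 95% Wilson interval) and MACS2 peak score (right, median as a dot, quartiles as a bar) for 7 positional classes of the 15121 peaks. The intergenic peaks at 10 to 50 kb (red) sat with the other distal classes near 65.5% and far to the right of promoter peaks at 34.4%, while median scores lay between 11.3 and 12.7 in all classes.

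The hexamer content did not set the 10 to 50 kb peaks clearly apart from other distal peaks. Intergenic peaks at 1 to 10 kb held TGTGGT in 62.4%, a difference of 3.10 points with an interval of -0.0798 to 6.28. Intergenic peaks beyond 50 kb held it in 65.0%, a difference of 0.510 points (-3.25 to 4.34). Intronic peaks beyond 10 kb held it more often, in 68.3%, and the difference of -2.85 points had an interval of -5.69 to -0.00894 that left out 0 but ran from -6.86 to 1.16 when widened for 9 comparisons. Promoter peaks were the class that differed most among those compared, with 34.4%, or 31.1 points less than the distal peaks (28.6 to 33.5), a comparison added after the data had been seen. Median GC content was 47.5% in the distal peaks and 59.8% in promoter peaks, and the part of base composition in this difference was not tested. TGCGGT went the other way, with 14.6% of distal peaks and 29.9% of promoter peaks. With either form counted, 73.1% of distal peaks and 66.5% of all peaks held a RUNX hexamer.

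The hexamer lay near the middle of the peak. Its density within 50 bp of the centre was 4.31 per kb and fell to 0.929 per kb at 500 to 1000 bp, a ratio of 4.64. In the 1270 peaks with a copy, the copy closest to the centre was a median of 43.5 bp away (quartiles 18.5 and 81.5 bp), and in 716 of them, or 56.4%, it was within 50 bp. GGAAGT, a binding core of ETS factors such as PU.1, a regulator of myeloid and DC development, followed the same profile, with 3.06 per kb near the centre and 0.677 per kb outside, a ratio of 4.51. TATAAA, an AT-rich control, was depleted at the centre, with a ratio of 0.504.

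**Figure D2:**
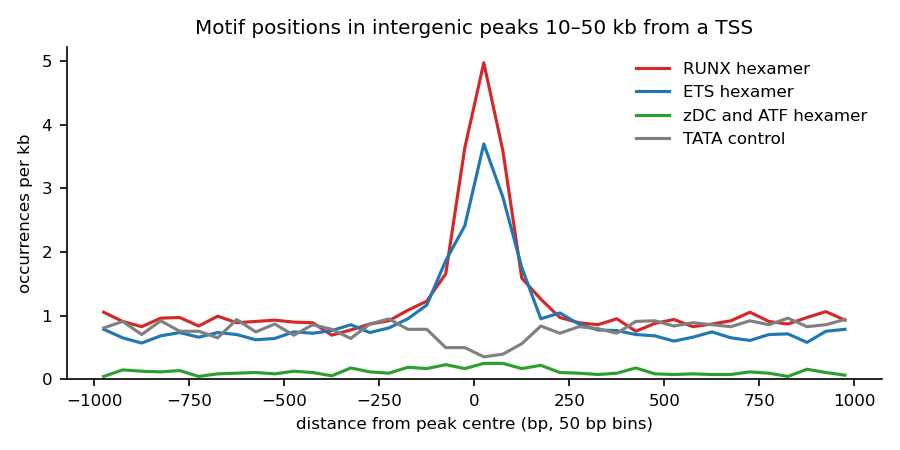
Occurrences per kb of 4 motifs in 50 bp bins against the distance from the peak centre (bp), over all 1940 distal peaks. The RUNX and ETS hexamers rose to 4.98 and 3.70 per kb in the bin just right of the centre, while the AT-rich control dipped there.

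Copies of TGTGGT in the distal peaks had preferred neighbours. Of the 1952 copies with 3 bases on either side inside the peak, the base that followed was T in 42.8%, and the base that preceded was C in 39.0% and A in 14.2%. The extended form TGTGGTT was present in 35.8% of distal peaks and 10.5% of the windows. The count of copies moved with the score. Distal peaks without the hexamer (670) had a median score of 10.5 (quartiles 6.48 and 18.2), those with 1 copy (791) a median of 13.4, those with 2 copies (350) a median of 15.7, and those with 3 or more (129) a median of 24.1 (quartiles 12.7 and 41.9). Widths rose along the same series, from a median of 366 bp to 523 bp, so longer peaks also offered more sequence. Within the central 200 bp, where the width is fixed, 47.5% (43.1 to 52.0%) of the 480 distal peaks with the lowest scores (up to 7.45) and 59.2% (54.8 to 63.5%) of the 485 with the highest (from 24.4) held TGTGGT. Over the whole peak the shares were 55.8% and 75.7%. Score and hexamer content thus moved together also at a fixed width, though a large part of the weakest peaks held the hexamer and many of the strongest peaks did not.

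The next hexamer by difference from the windows was GGAAGT, present in 1135 distal peaks, or 58.5% (56.3 to 60.7%), beside 52.8% of all peaks and 23.8% of the windows. Its share was alike in intergenic peaks at 1 to 10 kb (57.0%), those beyond 50 kb (58.2%) and intronic peaks beyond 10 kb (58.4%). In promoter peaks it was 44.4%. In a scan of all 2080 hexamers, each counted with its reverse complement, against the downstream windows, TGTGGT ranked 1 with a difference of 36.5 points and GGAAGT ranked 2 with 34.7 points. GTGGTT, which overlaps TGTGGT by 5 bases, ranked 3 with 32.2 points. GAGGAAGT, a longer PU.1-type site, was present in 19.4% of distal peaks and 3.42% of the windows, and the peak alone held it in 359 pairs against 52 for the window. The same 3 classes held GAGGAAGT in 18.35%, 19.5% and 18.6%. GGAAGT was present in 58.3% of the distal peaks with TGTGGT and 58.96% of those without. By number of TGTGGT copies, it was present in 59.7% of the peaks with 1, 58.6% of those with 2 and 48.8% of the 129 with 3 or more. Both were present in 740 peaks (38.1%, beside 7.31% of the windows), and neither in 275 (14.2%, beside 54.6% of the windows). Of 523 pairs of copies within 60 bp, no spacing and orientation held more than 7, among the 242 that were possible.

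Other motifs were rarer. The AP-1 site TGANTCA, bound by dimers that include Batf and Batf3, was present in 18.2% of distal peaks and 11.6% of the windows. The composite of ETS and IRF sites, which PU.1 and Irf4 can bind together, was present in 9.85% and 4.47%, and the repeat bound by IRF factors in 7.94% and 5.26%. TGACGT, bound by ATF factors and given by the study as the site of the DC factor zDC, was present in 7.16% of distal peaks, 4.10% of the windows and 17.0% of promoter peaks. The GC box GGGCGGG, a promoter element, was present in 6.65% of distal peaks and 46.5% of promoter peaks, and the ETS site CCGGAAG in 3.97% and 23.2%. Of the 18 motifs tested besides TGTGGT, 13 were held more often by the peak than by its window, with an interval above 50% of the pairs that differed. These 13 are not separate results, because TGTGGTT contains TGTGGT, GAGGAAGT contains GGAAGT, and GGAAGT was chosen after the data were examined. The GATA site AGATAA (17.9% and 22.1%) and TATAAA (19.0% and 26.99%) were held less often. For 3 the interval included 50%, namely the reversed RUNX control, the C/EBP site TTGCNNAAT and the C/EBP palindrome TTGCGCAA, which was found in 2 distal peaks. The share of all 2080 hexamers that would pass the same rule was not computed, so the count of 13 has no background beside it. Median GC content was higher in the peaks than in the windows (47.5% and 45.1%), and its part in these differences was not tested.

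**Figure D3:**
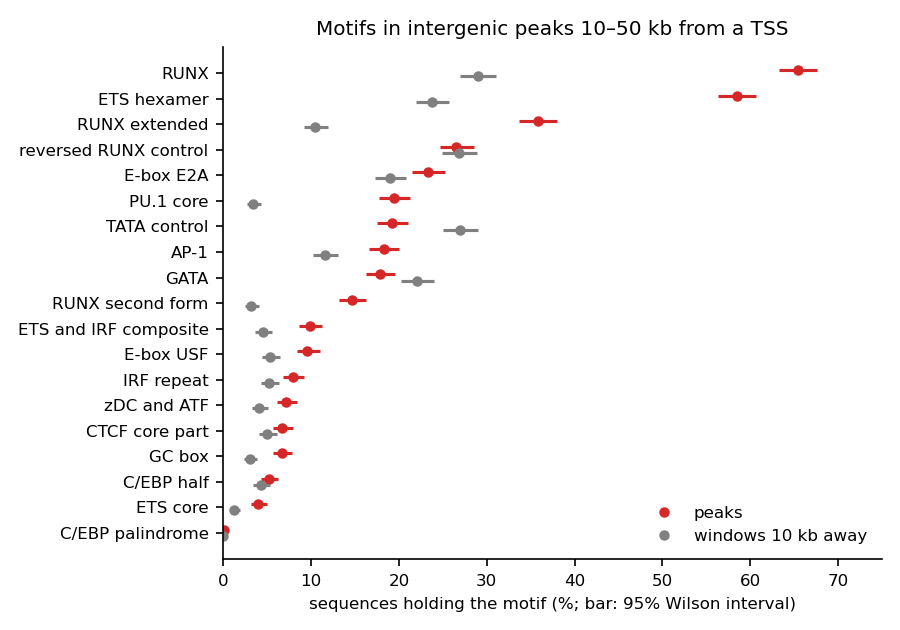
Percent of distal peaks (red) and of windows of equal width 10 kb downstream (grey) holding each of 19 motifs, with 95% Wilson intervals. The RUNX hexamer (65.5% and 29.0%) and the ETS hexamer (58.5% and 23.8%) stand apart, and the reversed RUNX control coincides in both.

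The distance to the nearest TSS of any gene had a median of 20870 bp with quartiles of 14624 and 31349 bp. The density of distal peaks was 3.87 per Mb (3.70 to 4.04) over 501.7 Mb of eligible intergenic sequence. It fell from 4.84 per Mb at 10 to 20 kb to 3.83 at 20 to 30 kb, 3.08 at 30 to 40 kb and 2.65 at 40 to 50 kb. Intergenic sequence at 1 to 10 kb held 6.28 peaks per Mb, and that beyond 50 kb held 1.22. Neither the hexamer share, between 63.9% and 68.2% in the 4 bins, nor the median score, between 12.54 and 13.14, followed the density. The share with a score in the upper quartile of all peaks was 27.5%, 28.85%, 26.8% and 22.4% from the nearest to the farthest bin. It was lowest in the farthest bin, and the intervals overlapped. Along the autosomes the density ran from 2.29 per Mb on chromosome 8 to 6.67 on chromosome 19.

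**Figure D4:**
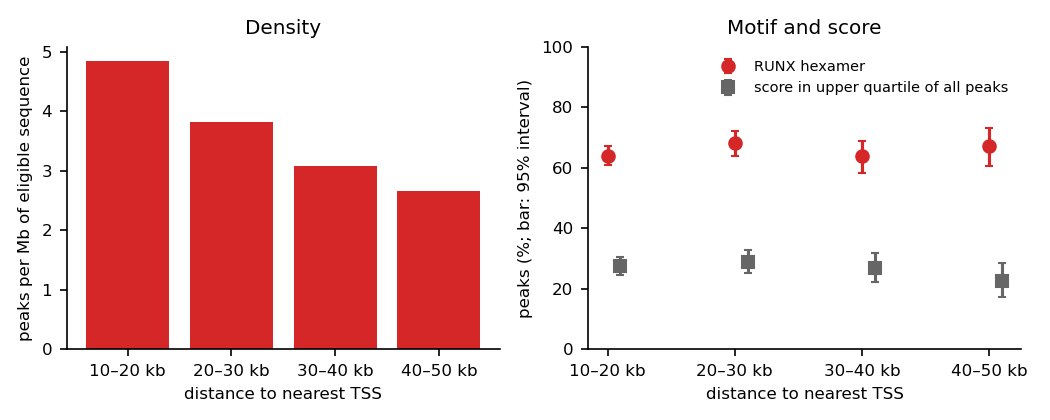
Distal peaks per Mb of eligible sequence (left) and percent holding the RUNX hexamer or scoring in the upper quartile of all peaks (right, 95% Wilson intervals), by 10 kb bins of distance to the nearest TSS. Density fell from 4.84 to 2.65 per Mb while the intervals of the hexamer share overlapped in all bins.

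Chromosome X carried few of these peaks. It held 18 over 51.5 Mb, or 0.349 per Mb (0.207 to 0.552), beside 4.28 per Mb (4.09 to 4.47) on the autosomes, a ratio of 12.2. The ratio was 7.85 for intergenic peaks at 1 to 10 kb, 5.61 for intronic peaks beyond 10 kb and 4.21 for promoter peaks. Beyond 50 kb it was 20.9, which rests on 2 peaks. The strongest X-linked distal peak scored 37.1 and lay 36693 bp from Tsc22d3, a glucocorticoid-induced leucine zipper gene. The sex of the mice is not given in the labels, and the parts of X copy number and read mappability were not tested.

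The nearest TSS belonged to a protein-coding gene for 1379 distal peaks (71.1%), and for 561 to a gene of another type, such as a pseudogene or a non-coding RNA gene. A protein-coding TSS was within 50 kb for 1653. Assigned to the protein-coding gene with the closest TSS, 63.5% (61.3 to 65.6%) lay upstream of it. The rule itself favours the upstream side, because it leaves out gene bodies, which lie downstream of their TSS. The upstream share of eligible sequence was not computed, so no preference can be read from this value. The closest protein-coding genes numbered 1353, or 6.05% of the 22380 protein-coding genes. Of them 982 had 1 distal peak, 240 had 2 and 131 had 3 or more. A promoter peak was present at the closest protein-coding gene of 38.1% (36.0 to 40.3%) of distal peaks. This share was 62.8% over all peaks, which count the promoter peaks themselves, and 24.9% of protein-coding genes had a promoter peak. It was 40.1% for intergenic peaks at 1 to 10 kb, 40.4% beyond 50 kb and 40.3% for intronic peaks beyond 10 kb, with differences of -2.04 (-5.28 to 1.18), -2.32 (-6.24 to 1.56) and -2.24 points (-5.18 to 0.703), none of which was called.

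The gene with the most distal peaks was Runx3 itself, with 7 (chromosome 4, 134676567 to 134733905, plus strand). Of these 3 lay upstream, with scores of 67.3, 6.57 and 4.79, and 4 lay downstream of its closest TSS, with scores of 34.2, 15.7, 9.84 and 4.79. TGTGGT was present in 5 of the 7, and the gene had a promoter peak too. There were 5 genes with 6 distal peaks each. Serpina12 encodes a secreted serpin and had scores of 2.30 to 121. Chd2, a chromatin remodeller, had scores of 7.84 to 84.6 at 16922 to 80854 bp, and Sub1, a transcriptional coactivator, had scores of 10.5 to 46.2. Pmaip1, which encodes the pro-apoptotic protein Noxa, had scores of 5.96 to 36.7. Btg1, an antiproliferative gene, had 4.73 to 16.5.

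Many distal peaks occurred in runs. With a gap of at most 12500 bp between centres, 694 distal peaks (35.8%) fell into 287 runs, and 31 runs held 4 or more. The share in runs was not computed for other classes or for the whole list, so it is not shown to be particular to the distal peaks. The run with most members held 6 within 10.9 kb upstream of Serpina12, at chr12:105295133-105306031. Its scores were 11.96, 22.3, 121, 14.2, 4.23 and 2.30 from left to right, so 1 peak stood far above the others. Of 5 distal peaks over 18.1 kb between Ifitm1 and Ifitm3, interferon-induced transmembrane proteins, 3 were strong. Those scored 55.3, 59.6 and 41.0, and the other two 5.36 and 5.86. A run of 5 upstream of Stk24, a kinase of the Ste20 family, had scores of 4.23 to 43.3. Close peaks can be parts of 1 bound element, and joining peaks under 300 bp apart left 1912 distal peaks.

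Distal peaks were then counted at genes of DC biology, in lists chosen with earlier results of these data known. The counts are therefore a description and not an independent test. Of 148 genes in 4 lists, 46 (31.1%) were the closest protein-coding gene of at least 1 distal peak, beside 6.05% of all protein-coding genes. By list these were 15 of 40 DC transcription factors, 17 of 42 surface receptors, 3 of 29 antigen presentation genes and 11 of 37 genes of costimulation and cytokine signalling. Among the lists of other cells, none of 10 B cell genes and none of 13 T cell genes had a distal peak, and 1 of 10 NK cell, 1 of 10 plasmacytoid DC, 2 of 10 CD8+ DC and 3 of 13 monocyte and macrophage genes did. Batf3, Runx2 and Csf1r stand in a DC list as well as in one of these. Of 20 lens, keratin and liver genes 1 did, the crystallin gene Crygs. The lists of other cells are short, and their counts do not cover all genes of those cells. T cell genes outside the list were closest to distal peaks, among them Cd28 (score 63.6), Ctla4 (21.5) and Ifng (35.2 and 15.0). With basal plus extension domains in place of the closest TSS, the counts became 2 for T cell, 2 for plasmacytoid DC, 3 for lens, keratin and liver and 5 for antigen presentation genes. Genes with more intergenic sequence around them offer more room for such a peak, and the part of this in the counts was not tested. The 88 peaks at the 46 genes had a median score of 14.3, beside 12.7 over all distal peaks. Of the 88, 25 were in the upper quartile of the whole list, beside 527 of the 1940 distal peaks (27.2%). TGTGGT was present in 63 of the 88 (71.6%), beside 65.5% of all distal peaks. These differences were not tested.

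For 10 of these genes the 60 bases around the hexamer closest to the peak centre are shown for the peak with the highest score, plus strand, with capitals as above. For Nr4a1, whose peak held no TGTGGT, the 60 bases are around the peak centre and include TGCGGT in reverse complement. The Prdm1 and Tgfbr2 stretches are from peaks 80856 and 97697 bp from the TSS of these genes.
Batf, chr12:86989011-86989070: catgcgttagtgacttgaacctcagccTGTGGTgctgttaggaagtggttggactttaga
Notch2, chr3:97775231-97775290: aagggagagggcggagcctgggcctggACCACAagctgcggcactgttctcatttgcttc
Runx3, chr4:134641467-134641526: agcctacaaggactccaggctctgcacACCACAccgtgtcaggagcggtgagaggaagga
Prdm1, chr10:44329090-44329149: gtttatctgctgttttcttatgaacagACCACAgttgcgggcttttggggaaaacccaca
Nr4a1, chr15:101076926-101076985: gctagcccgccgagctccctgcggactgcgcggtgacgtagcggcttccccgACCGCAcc
Cd4, chr6:124848443-124848502: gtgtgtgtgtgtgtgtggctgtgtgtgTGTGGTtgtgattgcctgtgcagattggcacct
Cd44, chr2:102784166-102784225: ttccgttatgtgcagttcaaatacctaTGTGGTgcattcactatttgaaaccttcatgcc
Cd86, chr16:36588165-36588224: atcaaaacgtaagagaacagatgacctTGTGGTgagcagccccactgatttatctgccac
Skil, chr3:30983042-30983101: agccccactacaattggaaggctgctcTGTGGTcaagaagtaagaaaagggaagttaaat
Tgfbr2, chr9:115986735-115986794: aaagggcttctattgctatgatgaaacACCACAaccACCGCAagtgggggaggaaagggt
The flanks differed in each, and in Batf, Skil and Tgfbr2 a further RUNX or ETS hexamer stood in the stretch. The Batf and Skil stretches held GGAAGT to the right of TGTGGT, and the Tgfbr2 stretch held TGCGGT in reverse complement. The Nr4a1 stretch also held TGACGT, given by the study as the zDC site and not in capitals here.

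Among the transcription factors, Notch2, the receptor on which CD4+ DC depend, had 1 distal peak, 42255 bp upstream, with a score of 79.8. Rbpj, the DNA-binding partner of Notch, had 2, with scores of 28.2 at 15746 bp and 24.9 at 46167 bp upstream. Both genes also had a promoter peak. Irf4, required for CD11b+ DC, had 2 distal peaks, downstream, with scores of 10.5 and 5.36, and neither held TGTGGT. The AP-1 family gene Batf had 2 upstream peaks (60.2 and 27.2), and Batf3, a factor of CD8+ DC development, had 5 with scores of 46.2, 33.2, 11.96, 7.84 and 1.69. The last of these was the weakest distal peak of all. Prdm1, which encodes the repressor Blimp-1, had 5 upstream peaks, all with TGTGGT, with scores of 45.2, 16.5, 15.0, 12.7 and 7.84. In that order they lay 80856, 36825, 78851, 10575 and 158317 bp from its TSS. The nuclear receptor gene Nr4a1 had the highest score among the transcription factors, 91.9, at 20321 bp upstream. The other RUNX genes also had distal peaks. Runx1 had 2, with scores of 21.1 and 13.1, and Runx2 had 1 with 12.4 at 305289 bp from its TSS. Distance limits what a closest gene means. The 2 peaks assigned to Zeb2 lay 162299 and 1253678 bp from it, near non-coding transcripts.

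Among surface receptors, Cd4, which defines the sorted population, had a distal peak with a score of 53.7 and 2 copies of TGTGGT, 10196 bp upstream of its TSS at chr6:124848097-124848774, and no promoter peak. Cd44, an adhesion receptor, had a peak of 75.3 with 5 copies of the hexamer at 42482 bp, and Adam23 had 69.3 and 26.7. Itgam, which encodes CD11b, had 1 peak (31.9) 13638 bp upstream. Kit, a growth factor receptor, had 3 (16.5, 8.96 and 7.37) and the decoy receptor gene Il1r2 had 3 (26.7, 16.5 and 15.5). The chemokine receptor genes Ccr2, Ccr7 and Ccr6 had 1 peak each, with scores of 5.36, 11.96 and 12.8.

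In the antigen presentation list, the 4 peaks at Lgmn, an endosomal protease, Psmb9, an immunoproteasome subunit, and Erap1, a peptide-trimming enzyme, scored 19.5 or less. In the costimulation and cytokine list, Cd86, a ligand of CD28 on T cells, had the strongest peak, with a score of 89.4 and 3 copies of TGTGGT, 16409 bp downstream. Icosl, the ligand of ICOS, had 5 peaks, all downstream, with scores of 34.2, 18.9, 14.2, 5.96 and 4.23. In the TGF-β pathway, Tgfbr2, the type II receptor, had 4 (22.3, 16.5, 6.94 and 3.69), Skil, a SMAD corepressor, had 1 (35.2) and Smad7, an inhibitory SMAD, had 2 (9.84 and 7.84). The Tgfbr2 peaks lay 97697, 91150, 18972 and 68612 bp from its TSS, in that order. The chemokine gene Ccl5 had 1 peak of 38.1 with 3 copies of the hexamer, and Il6 and Il1b had 1 weak peak each without it (5.96 and 8.49).

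**Figure D5:**
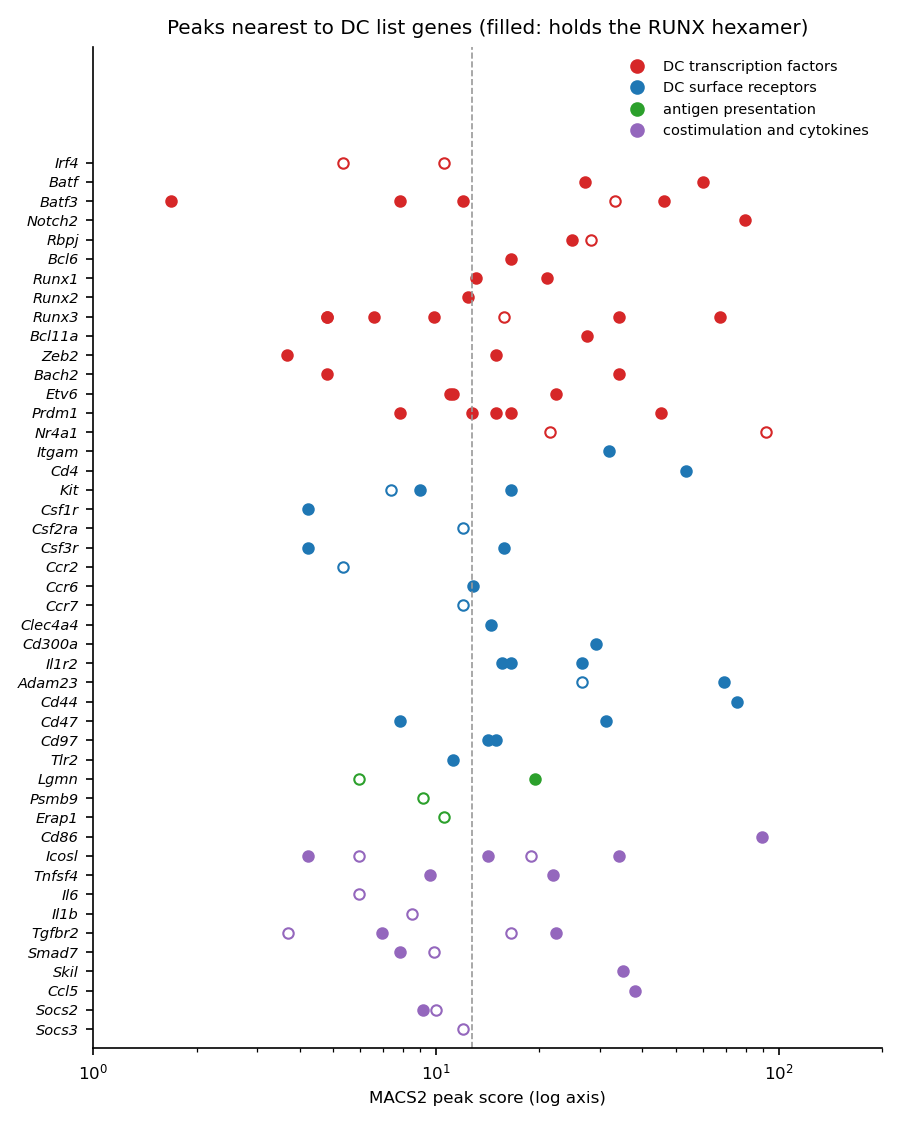
MACS2 scores (log axis) of the 88 distal peaks closest to 46 genes of 4 DC lists, 1 row per gene, filled where the peak holds the RUNX hexamer, with the median of all distal peaks, 12.7, as a dashed line. Scores spread from 1.69 to 91.9, with Nr4a1, Cd86 and Notch2 at the top, and the 2 weakest Runx3 peaks coincide at 4.79.

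Genes that the study lists as changed in CD4+ DC without Runx3 were also set against the distal peaks. That list was made from other samples, on arrays. Of its 408 genes found in the annotation, 60 (14.7%) were closest to a distal peak, beside 6.05% of all protein-coding genes, and 97 distal peaks (5%) were assigned to them, beside 4.08% of all peaks. The share of peaks was thus near the background. Among those with several distal peaks were Runx3 with 7, Prdm1 with 5, the chemokine receptor gene Cxcr4 with 5 (2.26 to 19.4) and Snx18, a sorting nexin, with 4 (7.84 to 52.6). Runx3 is the gene deleted for that comparison, so its place on the list does not by itself mark a response to the loss of Runx3. The Cxcr4 peaks lay 16035 to 221275 bp from its TSS. The ETS factor gene Ets2 had 1 peak, with a score of 85.8.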

How the data were processed

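Runx3 ChIP-seq was measured in 2 immunoprecipitates and 2 inputs of splenic CD4+ DC, with reads of 50 bp. Per the labels, CASAVA 1.8, Bowtie and MACS2 were used on mm9, and fragments were about 300 bp. The authors deposited 1 list, called on the pooled samples, whose score for each peak is the MACS2 value in a unit that is not stated. Depth was not computed here, so an absent peak means only that none was called.

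Peaks were placed by their centre with GENCODE M1 on NCBIM37, the same assembly as mm9, counted from 1, and sequences came from that genome. Wilson, Newcombe and exact Clopper-Pearson intervals at 95% cover counting error only, and a difference was called where its interval left out 0. Functions were tested on simulated data. Scripts ran in Python 3.11.15 with scipy 1.17.1 for intervals, pandas 2.3.3 and numpy 2.4.6 for tables, and matplotlib 3.10.9 for plots.

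Members, motifs and gene lists were chosen with earlier results of these data known. GGAAGT, the hexamer scan and the promoter comparison were added after the data were examined. Named were the 12 highest scores, the 3 widest, the runs with most members, peaks at the limits, list genes and the genes with most peaks. Fold changes and p-values of the study's gene list were not used. All 40, 42, 29 and 37 symbols of the DC lists matched a gene. Sequences on chromosome 18 are not shown. Results for 1 gene under this rule are not reported here.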

Additional observations from a re-analysis of the deposited data

How the results depend on the processing

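No paired analysis was possible because the peaks were called once on the pooled samples, and for the same reason no replicate could be left out. Across the alternatives, the excess of TGTGGT over the windows stayed on the same side, between 82.8% and 87.1% of the pairs that differed. The count of distal peaks was 1030 at 20 to 50 kb, 1014 with a score at or above the median and 527 with one at or above the upper quartile. By construction, these score limits also left 269 and 77 peaks in runs, 54 and 23 at genes of the study list, 2.02 and 1.05 peaks per Mb, and, for the upper quartile, 20 genes of the DC lists. Density on autosomes alone was 4.28 per Mb. The share with TGTGGT was 72.9% at or above the median score, 75.7% at or above the upper quartile, 52.9% in the central 200 bp, 73.1% with TGCGGT counted and 35.8% for TGTGGTT. With basal plus extension domains, which can give a peak 2 genes, 167 peaks reached the study list.

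Small differences between distal classes depended on the setting, and the cause was not tested. The difference in TGTGGT from intergenic peaks at 1 to 10 kb was called with protein-coding annotation only (5.11 points), 1 TSS per gene (3.42), scores at or above the median (6.39) and the central 200 bp (3.91). The difference from peaks beyond 50 kb changed sign at the median score (-1.38), at the upper quartile (-0.479) and in the central 200 bp (-1.40). The difference from intronic peaks was not called with protein-coding annotation only (-2.36), 1 TSS per gene (-1.79), peak edges (-2.63), the median score (-1.94), the upper quartile (-3.98) and the interval for 9 comparisons (-2.85). The difference in upper-quartile scores from intergenic peaks at 1 to 10 kb was not called with that interval (3.24). For promoter peaks at the closest gene, the difference from intergenic peaks at 1 to 10 kb was 0.802 at the median score and 2.24 at the upper quartile, and -23.6 with promoters drawn to 5 kb, where peaks at 1 to 5 kb count themselves. From peaks beyond 50 kb it was 0.267 with protein-coding annotation only, 1.26 at the median score, 2.32 at the upper quartile and 0.239 with promoters to 5 kb. From intronic peaks it was 0.351 with 1 TSS per gene and 0.256 at the upper quartile.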

Other observations

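TGTGGT lay more often to the right of the centre of distal peaks, at higher coordinates, than to the left. Of the 1270 distal peaks with a copy, the copy closest to the centre was on the right in 60.2% (57.5 to 62.9%), with a median offset of 14.5 bp. GGAAGT was on the right in 59.3%, with a median offset of 17.5 bp. The same side was favoured for TGTGGT in intergenic peaks at 1 to 10 kb (58.7%), in those beyond 50 kb (67.1%), in intronic peaks beyond 10 kb (63.0%) and in promoter peaks (59.5%). Peak summits were not analysed here. The central 200 bp held TGTGGT in 1027 of the 1270 peaks.

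Of the 670 distal peaks without TGTGGT, 149 held TGCGGT. In the hexamer scan TGCGGT ranked 22, with 14.6% of peaks and 3.21% of windows, a ratio of 4.54, which exceeded the ratio of 2.26 for TGTGGT and was below that of 5.72 for GAGGAAGT. TGACGT ranked 348.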
